A study of Mus musculus with 7 samples.

Results

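RNA of mouse embryonic stem cells that had lost a distal Sox2 enhancer on the chromosome inherited from the 129 strain was compared with RNA of unedited cells of the same line. The comparison used 2 of the 7 samples of the series, 1 RNA-seq library of each genotype, and was made over 31498 genes. The cells were F123, a line from a cross between Mus musculus castaneus (CAST) and 129 mice, so every autosomal gene has a CAST and a 129 copy. WT (CAST+/129+) kept both copies of the enhancer and CAST+/129- lacked the 129 copy. Libraries of CAST-/129+, which lacked the CAST copy, and CAST-/129-, which lacked both, were used only to show where CAST+/129- differed from or resembled them. Each edited genotype was a single clone, made with CRISPR/Cas9 and a pair of guides, recovered on puromycin-resistant feeder cells under puromycin and passaged without feeders before harvest. With 1 library per genotype no difference below has a replicate check and no test was possible. Alignments were not split by allele here, and from these counts a change caused by the deletion cannot be told apart from a difference between clones. For Sox2 the study also measured each allele by RT-qPCR in several clones. It reported far less RNA from the copy lacking the enhancer than from the intact copy.

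Sox2 is a DNA-binding protein that, with Oct4 (Pou5f1) and Nanog, keeps embryonic stem cells pluripotent, and a gene often depends on an enhancer that lies far from it. A super-enhancer is a cluster of such elements with dense histone H3 lysine 27 acetylation (H3K27ac). Naive pluripotency factors such as Klf4 and Esrrb mark the state of the early inner cell mass, whereas keratins, Hand1 and Plac1 mark trophectoderm, the outer layer that forms the placenta, and Gata6 and Pdgfra mark primitive endoderm.

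The files held 33684661 distinct alignments for WT and 16380802 for CAST+/129-, of which 24848413 and 12458895 fell on genes. The CAST-/129+ and CAST-/129- libraries were shallower, at 6058895 and 5831179 alignments on genes. Levels are given as FPKM (fragments per kilobase of exon, scaled to library depth, here computed from distinct alignments), and alignments over a region as CPM (scaled to the alignments on genes, as in FPKM but without length). A gene was called where the ratio of FPKM plus 4 reached 3-fold. Intervals are exact 95% intervals that cover counting error only, and mates and spliced segments of 1 fragment were counted separately, so they are too narrow.

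The enhancer could be placed from the H3K27ac alignments of unedited F123 cells. A run of 1-kb bins with at least 10 alignments each extended over 13 kb, at chr3:34653384-34666383 (mm9), 102 to 115 kb past the end of Sox2 (chr3:34548927-34551383, plus strand). The run held 531 H3K27ac alignments, with up to 84 in a bin against a median of 1 over the bins around Sox2. It also held 83 alignments of H3K4me3, the mark of active gene starts. The exact ends of the deletion were not used here.

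RNA of the Sox2 strand from this acetylated region was present in CAST+/129-. It amounted to 10.2 CPM in WT (interval 8.97 to 11.5) and 12.4 CPM in CAST+/129- (10.5 to 14.5), so the intervals overlapped. In CAST-/129+ the same region gave 2.64 CPM (1.51 to 4.29) and in CAST-/129- it gave 1.20 CPM (0.483 to 2.47). The 15 kb that follow gave 14.7 CPM in WT (13.3 to 16.3), 8.35 CPM in CAST+/129- (6.82 to 10.1), 1.65 CPM in CAST-/129+ and 0 CPM in CAST-/129- (0 to 0.633). Over the acetylated region the clone lacking the 129 copy thus lay near WT, whereas summed over the following 15 kb it lay below WT and above the other clones. That sum was uneven along the stretch. In the 1-kb bins at 115 to 120 kb CAST+/129- held 0.401 to 2.17 CPM of the Sox2 strand, beside 0.604 to 2.25 CPM in WT. At 121 to 129 kb no bin of CAST+/129- passed 0.241 CPM, beside 0.362 to 1.93 CPM in WT and up to 0.495 CPM in CAST-/129+. These alignments were not split by allele, so the share of RNA from each copy was not measured. The study states, without showing the data, that the non-coding RNA Peril starts within the deletion and was absent from deleted alleles.

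**Figure D1:**
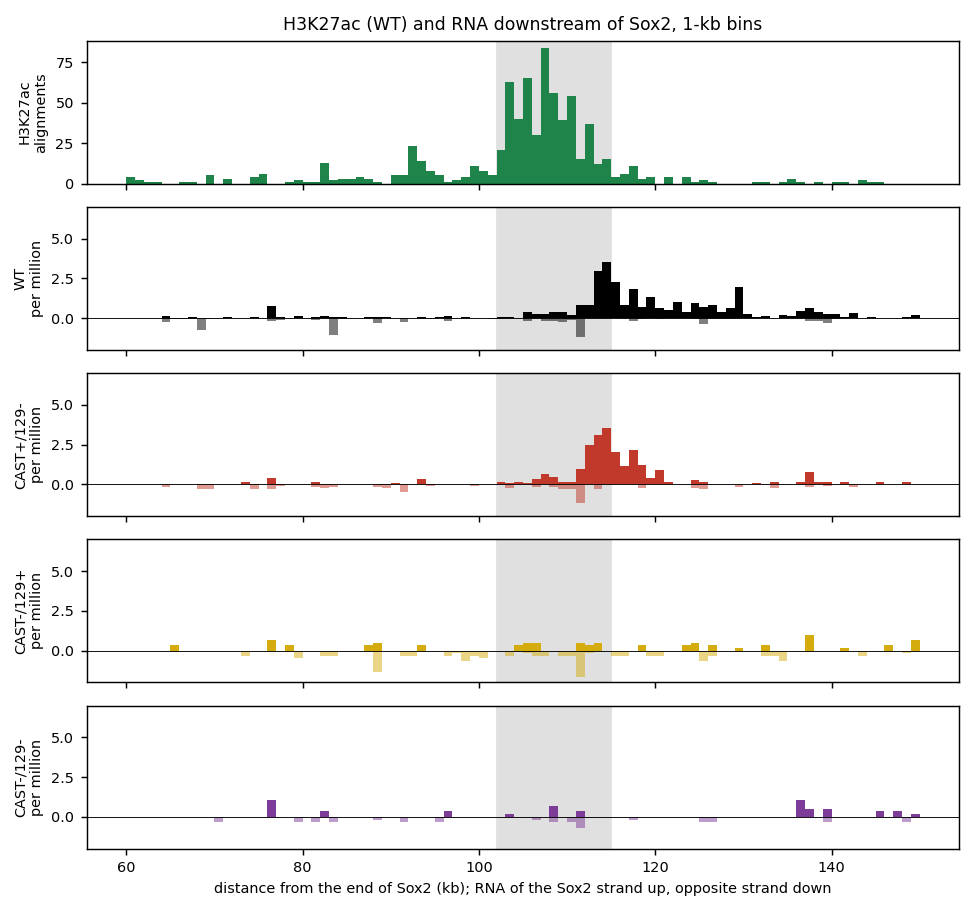
H3K27ac alignments of unedited F123 cells (top, count per 1-kb bin) and RNA alignments in CPM in the 4 libraries, against distance from the end of Sox2 in kb; bars above 0 are RNA of the Sox2 strand and bars below 0 RNA of the opposite strand, and the grey band is the 13-kb acetylated region. RNA of the Sox2 strand in the band sums to 10.2 and 12.4 CPM in WT and CAST+/129- and to 2.64 and 1.20 CPM in the other 2 clones.

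Sox2 itself was lower in CAST+/129- but did not reach the 3-fold threshold. It measured 175 FPKM in WT (10667 alignments) and 82.0 FPKM in CAST+/129- (2510 alignments), 46.9% of WT (44.9 to 49.0). It measured 73.1 FPKM in CAST-/129+ and 7.40 FPKM in CAST-/129-, so the 2 single-copy clones lay close together and far above the clone lacking both copies. Counted as reads before identical alignments were collapsed, Sox2 in CAST+/129- was 38.0% of WT. The nearest protein-coding genes on either side were nearer to WT. Atp11b, a phospholipid flippase, measured 37.0 FPKM in WT and 30.7 in CAST+/129-, 83.0% of WT (79.3 to 87.0). Dnajc19, a mitochondrial chaperone, measured 7.75 FPKM and 10.4 FPKM, 134% of WT (120 to 150).

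Of the 31498 genes, 101 were at least 3-fold higher in CAST+/129- than in WT (0.321%) and 96 were at least 3-fold lower (0.305%). Only 8601 genes reached 8 FPKM in WT or CAST+/129-, below which 3-fold cannot be passed, and of these 1.17% were higher and 1.12% lower. The median log2 ratio over these 8601 genes was 0.01. The WT library held the markers of embryonic stem cells, with Pou5f1 at 188 FPKM, Sox2 at 175 FPKM and Nanog at 130 FPKM. At the edge of the threshold, Sbsn was inside at a log2 ratio of 1.62 and Timp2 outside at 1.58, while Itpka was inside at -1.59 and Fetub outside at -1.58.

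**Figure D2:**
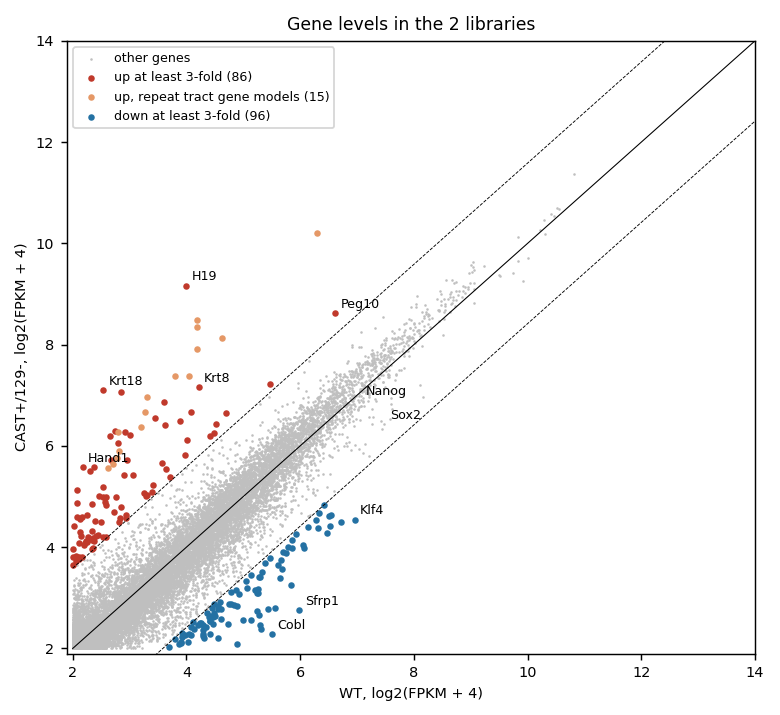
Level of each gene in WT (x axis) and CAST+/129- (y axis), both as log2(FPKM + 4); the solid line is equality and the dashed lines 3-fold. Of the called genes, 86 lie above the upper line outside the repeat tracts, 15 are repeat tract gene models and 96 lie below the lower line.

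A block of the higher genes did not behave as ordinary genes. There were 15 gene models in a pair of short tracts, 13 at the start of chromosome 9 and 2 on chromosome 2. These models were grouped by position as repeat tract models, although a clear period was measured only on chromosome 9. All 15 were called, with log2 ratios from 2.93 to 4.29. They took 9 of the 15 highest places among protein-coding and long intergenic genes. Together they received 153 CPM in WT, 2765 in CAST+/129-, 4579 in CAST-/129+ and 2052 in CAST-/129-, 18.0-fold more in CAST+/129- than in WT (17.5 to 18.7). Both strands were covered about equally. The antisense share was 52.4% in WT and 54.7% in CAST+/129-, against 2.88% and 3.11% over all genes. Copies of a repeat cannot be told apart by alignment, so no single model's level on chromosome 9 is certain. The same may hold for the models on chromosome 2. The named genes below lie outside these tracts.

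The chromosome 9 tract repeated itself every 234 bases: over its first 38.5 kb, 71.3% of bases equalled the base 234 positions on, against a median of 31.3% over other offsets. The chromosome 2 tract showed no such period: its best offset was 58 bases, with 30.9% equal against a median of 26.96%, and a comparison stretch elsewhere on chromosome 9 reached 26.3% against 25.4%. The unit at the start of the model Gm10718 (chr9:3023547-3023780, mm9, plus strand) is shown because 13 of the 101 calls lie in that tract. Of its 234 bases, 186 are the same in the next unit.
Gm10718 unit: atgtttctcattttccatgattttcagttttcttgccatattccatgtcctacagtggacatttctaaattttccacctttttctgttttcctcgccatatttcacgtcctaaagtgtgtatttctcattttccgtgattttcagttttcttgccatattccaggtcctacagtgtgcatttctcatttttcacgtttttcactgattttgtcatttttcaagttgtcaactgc

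Naive pluripotency genes were mostly lower, but unequally so. Of 15 measured, 5 were called lower and 1 higher, 14 lay below WT, and the median log2 ratio was -0.77 against 0.01 over the 8601 genes. Klf4, a Krüppel-like factor, measured 120 FPKM in WT and 19.3 FPKM in CAST+/129-, 15.98% of WT (14.8 to 17.2). Tcl1, an Akt co-activator, went from 53.5 to 5.597 FPKM, and Tbx3, a T-box factor, from 101 to 18.6 FPKM. Nr0b1 (Dax1) was at 20.1% of WT (17.4 to 23.2) and Tcfcp2l1 at 23.7% (22.7 to 24.8). Counted as distinct alignments, other members of the list stayed closer to WT. Nanog was at 88.8% of WT (85.1 to 92.5), the marker Zfp42 (Rex1) at 89.3% (85.9 to 92.8) and Klf2 at 88.7% (82.4 to 95.4). Esrrb, an orphan nuclear receptor, lay between these groups at 57.0% (55.0 to 59.1). Zfp42 had 3.46 reads per distinct alignment in WT and 2.05 in CAST+/129-. Over all genes, 24848413 distinct alignments held 64808366 reads in WT, and 12458895 held 22178865 reads in CAST+/129-. Counted as reads and scaled to the reads on genes, Zfp42 therefore lay further below WT.

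Nanog lay near WT in CAST+/129- and lower in the other clones. It measured 130 FPKM in WT, 115 in CAST+/129-, 76.5 in CAST-/129+ and 38.9 in CAST-/129-. Klf4 was low in all 3, at 19.3, 13.9 and 8.29 FPKM. The list's median log2 ratio was -1.29 in CAST-/129+ and -1.77 in CAST-/129-, all 3 ratios being taken against the same WT library. Pou5f1 was at 69.9% of WT (67.3 to 72.6) in CAST+/129-, and Tet1, which oxidises methylated cytosine, at 55.1% (53.9 to 56.3). Kit, a receptor tyrosine kinase, was called lower, from 29.3 to 5.13 FPKM.

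Dppa3 (Stella), a maternal and germ-line factor, went against the rest of the list. It measured 6.86 FPKM in WT and 89.4 FPKM in CAST+/129-, 13.03-fold higher (10.97 to 15.6), and stood at 108 and 31.1 FPKM in CAST-/129+ and CAST-/129-. Genes shared by naive and later pluripotent cells changed less: of 14, 1 was called higher (Epcam, an adhesion protein, from 18.3 to 72.4 FPKM), none lower, and the median was 0.11. Of 12 primed epiblast genes 1 was called, the homeobox gene Otx2, at 3.20 FPKM in WT and 23.9 in CAST+/129-. Only 5 of the 12 reached the level at which 3-fold can be passed. Above WT lay 8 and below it 4, and the median was 0.41. Fgf5 of this list measured 0.129 and 4.01 FPKM in WT and CAST+/129-, 31.2-fold (15.3 to 73.8), too low to be called.

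Trophectoderm genes were higher. Of 16 measured, 6 were called higher and none lower, 14 lay above WT, and the median log2 ratio was 1.06. The 6 were the keratins Krt7, Krt8, Krt18 and Krt19, with Hand1 and Plac1. Of the 16, 10 reached 8 FPKM in WT or CAST+/129-. Other transcription factors of the list, such as Gata3, Tfap2c and Elf5, were not called. Krt18, a keratin of simple epithelia, had the largest ratio of any protein-coding gene once 4 was added to both levels, from 1.81 FPKM (63 alignments) in WT to 133 FPKM (2324 alignments) in CAST+/129-, 73.6-fold (57.3 to 96.1). Its filament partner Krt8 went from 14.6 to 139 FPKM and Krt19 from 2.39 to 48.5 FPKM. Hand1, a trophoblast and heart factor, went from 0.524 to 43.9 FPKM, 83.8-fold (56.9 to 129). Krt7 rested on 3 alignments in WT and 756 in CAST+/129-, a ratio of 503 (171 to 2443), and Plac1 on 2 and 303. Counted as reads, Krt7 no longer reached 3-fold, with a log2 ratio of 1.36. The defining factor Cdx2 measured 0.0712 FPKM in WT and 0.710 FPKM in CAST+/129-, levels at which 3-fold could not be passed.

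Genes outside that list were also among the largest increases. The X-linked homeobox gene Rhox6 measured 3.19 FPKM in WT, 129 in CAST+/129-, 135 in CAST-/129+ and 74.5 in CAST-/129-. Rhox9, a paralogue whose reads could in part be shared with Rhox6, went from 0.950 to 41.6 FPKM. Sct, the hormone secretin, went from 1.21 to 44.0 FPKM, Sfn, an epithelial 14-3-3 protein, from 10.9 to 86.5 FPKM and the LIM protein Crip1 from 8.23 to 113 FPKM. Id2, an inhibitor of basic helix-loop-helix factors, went from 2.98 to 62.6 FPKM, 21.0-fold (16.99 to 26.2).

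Primitive endoderm genes were lower. Of 16 measured, 3 were called lower, none higher, 14 lay below WT, and the median was -0.82. Gata6 measured 42.9 FPKM in WT and 2.94 FPKM in CAST+/129-, 6.85% of WT (5.65 to 8.23). The receptor Pdgfra was at 7.07% (5.90 to 8.40). Gata4 measured 17.4 FPKM in WT, 1.83 in CAST+/129-, 13.001 in CAST-/129+ and 3.95 in CAST-/129-, so CAST+/129- held the lowest level, although Gata4 did not reach 3-fold when reads were counted (log2 ratio -1.52). In bulk RNA, fewer cells of a type and less RNA per cell cannot be told apart. Primitive streak and mesoderm genes were not called in CAST+/129- (0 of 14, median 0.05), but only 2 of the 14 reached the level at which 3-fold can be passed and 11 lay above WT. Of the same list 5 were called higher in CAST-/129+ and 7 in CAST-/129-. In CAST-/129+, 0.473% of all genes and 1.72% of those of at least 8 FPKM were called higher, and 0.33% and 1.2% lower. In CAST-/129-, 0.819% and 2.91% were called higher. With 4 added to each level Eomes had the largest ratio of this list in CAST+/129-, at 3.89 and 18.3 FPKM in WT and CAST+/129-, short of 3-fold on that scale. T (Brachyury), a mesoderm factor, measured 0.418 and 3.16 FPKM, 7.56-fold (4.78 to 12.4), and the growth factor Fgf8 0.119 and 1.01 FPKM, both too low to be called.

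**Figure D3:**
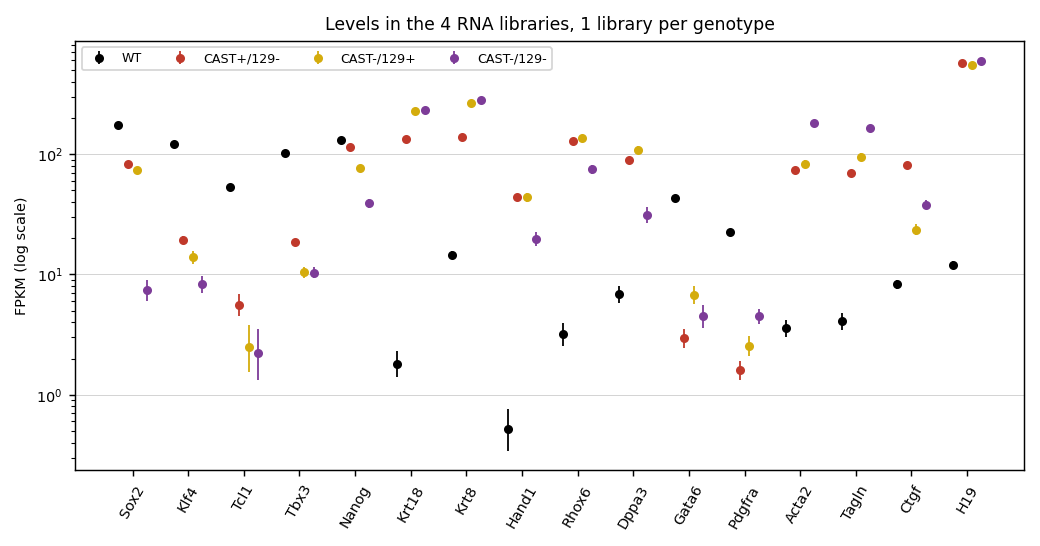
FPKM (log axis) of 16 named genes in the 4 RNA libraries; points are single libraries and bars are exact 95% Poisson intervals of the count. Sox2 is at 82.0 and 73.1 FPKM in the single-copy clones and 7.40 in CAST-/129-, Nanog stays near WT in CAST+/129- at 115, and Krt18, Hand1 and H19 are high in every clone.

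The strongest decreases among all genes included several that are not pluripotency factors. Sfrp1, a secreted Wnt antagonist, measured 59.4 FPKM in WT and 2.77 FPKM in CAST+/129-, 4.66% of WT (3.94 to 5.48), but 28.4 FPKM in CAST-/129+. Cobl, an actin nucleator, went from 41.4 to 0.868 FPKM, 2.10% of WT (1.68 to 2.59). Ly75, an endocytic receptor, was at 3.45% (2.84 to 4.15), the lysosomal protein Laptm5 at 4.22% (3.28 to 5.35) and Igsf21 at 0.954% (0.350 to 2.08). Igf2bp2, an RNA-binding protein, was at 14.1% (12.9 to 15.3). H2-Eb1, a class II antigen-presenting protein, went from 34.8 to 2.36 FPKM, the peptidase Dpp4 from 33.9 to 2.68 FPKM, and the AP-1 repressor Jdp2 from 27.8 to 1.87 FPKM. The water channel Aqp8 rested on few alignments in CAST+/129- and was at 3.12% of WT (1.60 to 5.48). All of these were also below WT in the other clones. Of 12 germ cell genes 2 were called lower, Stra8 from 62.4 to 12.6 FPKM and Dazl from 73.4 to 19.4 FPKM, and the median was -0.87.

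Genes of the response to amino acid shortage were lower as a group. Cells switch these genes on through the factor Atf4. Of 26 measured, 6 were called lower, none higher, 25 lay below WT, and the median was -0.91. Chac1, which degrades glutathione, was at 9.60% of WT (6.81 to 13.2), and the cationic amino acid transporter Slc7a1 at 21.9% (20.5 to 23.3). Atf5, Slc1a5, Pck2 and Cth were the other members called. Atf4 RNA measured 151 FPKM in WT and 91.1 FPKM in CAST+/129-. Of 18 cholesterol synthesis genes none was called in either direction, with a median of 0.02.

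Genes of the actin cytoskeleton and contractile apparatus were higher. Of 26 measured, 11 were called higher, none lower, 25 lay above WT, and the median was 1.42. Acta2, smooth muscle actin, measured 3.57 FPKM in WT and 73.7 FPKM in CAST+/129-, 20.6-fold (17.5 to 24.5). The actin-binding protein Tagln went from 4.09 to 70.0 FPKM and the matrix protein Thbs1 from 2.27 to 69.7 FPKM. Ctgf measured 8.31 FPKM in WT, 81.4 in CAST+/129-, 23.6 in CAST-/129+ and 37.9 in CAST-/129-, highest in CAST+/129-. Cyr61 and Ankrd1, which like Ctgf are known targets of Yap and Tead, were also highest there, at 81.9 and 12.96 FPKM. Of 19 annexin and S100 genes, 4 were called higher, among them S100a4 from 1.78 to 32.7 FPKM.

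Fibroblast markers were mostly higher as well, and feeder cells had been used in making the clones. Of 22 fibroblast markers, 5 were called higher in CAST+/129-. Above WT lay 20 of them and below it 2, among these Thy1, at 11.4 FPKM in WT and 5.69 in CAST+/129-. The fibroblast list summed to 40.6 FPKM in WT, 189 in CAST+/129-, 164 in CAST-/129+ and 867 in CAST-/129-. The actin list summed to 1137, 2269, 2169 and 2812 FPKM in the same order, so the lists differed most in CAST-/129-. Col1a1, the main collagen of fibroblasts, measured 3.48 FPKM in WT, 39.0 in CAST+/129-, 38.9 in CAST-/129+ and 174 in CAST-/129-. Fap and Lum of the fibroblast list were at 0 in WT and at 0.113 and 0.193 FPKM in CAST+/129-. Of 9 macrophage markers 1 was called, Lyz2, with 0 alignments in WT and 191 in CAST+/129-, 127-fold higher against a floor of 3 alignments and at least 102-fold by the exact interval. The part of fibroblasts or other carried-over cells in the higher actin genes was not tested.

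Contractile genes are classic targets of serum response factor, which binds the CArG box. In RefSeq promoters (GRCm38.p6, 250 bases before to 50 after a gene's start, both strands), this 10-base motif was found in 1.63% of 32851 promoter sequences, in 1.70% of the genes of at least 8 FPKM that matched a promoter, and in 7 of 21 matched members of the actin list. Of the 8 matched members called higher, 2 held it, and their promoters are shown with the CArG box in capitals. Cnn2, a calponin, is at chr10:79988350-79988649, plus strand, and the myosin light chain gene Myl9 at chr2:156775214-156775513, plus strand. Cnn2 measured 3.78 and 48.8 FPKM and Myl9 1.52 and 28.3 FPKM in WT and CAST+/129-. Of the other motifs searched on both strands, GGAATG, the Tead core, stood in 42.9% of the matched actin list and 13.7% of the matched genes of at least 8 FPKM, and may share 2 bases with a CArG box. CTTTGT, a Sox core, stood in 6.35% of the matched higher genes, 20.3% of the matched lower genes and 15.1% of the matched genes of at least 8 FPKM. ATGCAAAT, the octamer, stood in 3.17%, 2.53% and 1.60% of them. Over all 32851 promoter sequences the shares were 18.7% for CTTTGT, 14.7% for GGAATG and 1.74% for ATGCAAAT. A match is a description of letters, not of a bound site.
Cnn2: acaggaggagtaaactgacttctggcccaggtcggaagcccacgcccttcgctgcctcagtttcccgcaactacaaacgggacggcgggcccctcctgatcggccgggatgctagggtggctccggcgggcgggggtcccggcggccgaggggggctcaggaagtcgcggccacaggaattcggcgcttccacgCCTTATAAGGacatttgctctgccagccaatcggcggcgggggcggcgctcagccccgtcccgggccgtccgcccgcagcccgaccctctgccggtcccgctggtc
Myl9: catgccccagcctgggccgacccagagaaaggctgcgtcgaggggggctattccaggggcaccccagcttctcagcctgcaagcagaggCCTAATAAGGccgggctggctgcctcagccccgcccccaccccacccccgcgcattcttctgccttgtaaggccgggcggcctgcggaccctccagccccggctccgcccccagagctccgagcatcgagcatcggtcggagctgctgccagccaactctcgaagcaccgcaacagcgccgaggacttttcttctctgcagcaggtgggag

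Glycolysis and hypoxia genes leaned upward. Of 27 measured, 3 were called higher, none lower, and 21 lay above WT, with a median of 0.62. Bnip3, a mitophagy receptor, went from 1.92 to 25.8 FPKM and the lactate exporter Slc16a3 from 1.14 to 14.1 FPKM. Ankrd37, a known target of hypoxia-inducible factor, measured 0.746 FPKM in WT, 20.9 in CAST+/129-, 9.88 in CAST-/129+ and 3.30 in CAST-/129-. Vegfa, a textbook member of the response, was lower, at 34.5 and 11.05 FPKM in WT and CAST+/129-. The core of the hypoxia element, ACGTG on either strand, stood in the promoters of 18 of 25 matched list members. It stood in 31.3% of the matched genes of at least 8 FPKM. Among genes called in CAST+/129-, 25.4% of the matched higher genes outside the repeat tracts and 27.8% of the matched lower genes held it. The list was made of known genes of this response, so its share is no measure of a response in CAST+/129-. The Ankrd37 promoter (chr8:45999801-46000100, GRCm38.p6, minus strand) is shown with its 2 matches in capitals.
Ankrd37: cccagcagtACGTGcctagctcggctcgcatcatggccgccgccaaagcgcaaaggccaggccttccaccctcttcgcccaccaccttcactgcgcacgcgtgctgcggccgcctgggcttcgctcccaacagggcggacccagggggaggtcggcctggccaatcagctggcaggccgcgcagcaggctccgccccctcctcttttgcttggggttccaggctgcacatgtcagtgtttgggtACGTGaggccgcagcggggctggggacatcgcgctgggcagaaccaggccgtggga

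Among 33 imprinted genes, which are expressed from the copy of 1 parent, 3 were called higher and 1 lower, with a median of 0.27. The non-coding RNA H19 had the largest ratio of all genes on the same scale. It measured 11.9 FPKM in WT, 571 in CAST+/129-, 554 in CAST-/129+ and 589 in CAST-/129-, so WT stood apart from 3 clones at nearly the same level. Peg10, a retrotransposon-derived placental gene, went from 94.2 to 391 FPKM and Peg3 from 5.93 to 28.9 FPKM. Grb10, a growth inhibitor, was the member called lower, at 14.4% of WT (12.9 to 15.97). Igf2, the neighbour of H19, measured 1.44 and 2.995 FPKM in WT and CAST+/129-, 32.4 FPKM in CAST-/129+ and 71.0 FPKM in CAST-/129-.

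**Figure D4:**
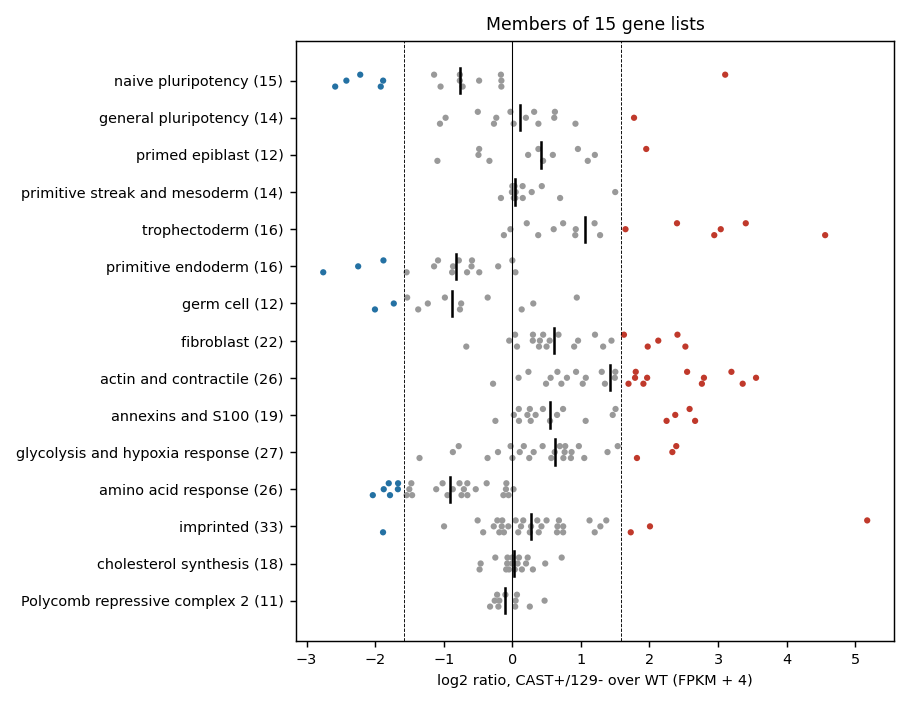
Log2 ratio of CAST+/129- over WT, on FPKM + 4, for the members of 15 gene lists (number measured in brackets); each point is a gene, the black bar is the list median, dashed lines are 3-fold, and coloured points are past it. Medians run from -0.91 for the amino acid response to 1.42 for the actin list, with cholesterol synthesis at 0.02.

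Epithelial genes beyond the keratins were among the higher ones. Of 19 epithelial and mesenchymal genes 5 were called higher and none lower, with a median of 0.30: besides Krt18, Krt8 and Epcam these were Cldn6, a tight junction protein, from 1.76 to 27.9 FPKM, and Esrp1, a splicing factor of epithelia, from 0.396 to 15.6 FPKM. Of 11 neural genes 1 was called, Nes, an intermediate filament of progenitors, from 1.80 to 14.3 FPKM, and it did not reach 3-fold when reads were counted (log2 ratio 1.43). Of 19 p53 targets, cyclin-dependent kinase inhibitors and D cyclins 1 was called, the stress gene Gadd45g, from 0.686 to 13.3 FPKM, with a median of 0.14; counted as reads its log2 ratio was 1.56, under 3-fold. Of 13 growth regulators Igf2bp2 was the 1 called, and Myc, the growth-promoting factor, measured 20.7 FPKM in WT and 40.8 FPKM in CAST+/129-.

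Lists with no called member were not all centred on 0. All 11 heat shock genes lay above WT, with a median of 0.46 and Hspa8, the constitutive chaperone, at 223 and 334 FPKM. All 5 genes of the 2-cell-like state that were measured lay above WT, with a median of 1.04; Zscan4d, Zscan4c and Zscan4f are close copies of each other whose single levels are uncertain. Of 15 retinoic acid genes the median was -0.07. Of 11 Sox genes the median was 0.03, and Sox15, the Sox gene nearest to the threshold, measured 6.45 FPKM in WT and 26.9 FPKM in CAST+/129-.

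Signalling lists held few called members. Of 16 Nodal pathway genes 1 was called higher, Inhba, an activin subunit, from 0.203 to 20.3 FPKM, and the median was 0.28. Of 16 BMP and Id genes Id2 was the 1 called. Of 15 WNT targets and 11 genes of LIF and Stat3 signalling none was called. Only 2 of the WNT targets reached the level at which 3-fold can be passed, and 7 lay above WT and 8 below. Lef1, a nuclear effector of Wnt signalling, went from 0.0651 to 5.36 FPKM, and Dkk1 of the same list from 3.37 to 0.265 FPKM. Of 18 genes of FGF and ERK signalling Kit was the 1 called, 7 lay above WT and 11 below, and the median was -0.17. The immediate-early gene Egr1 measured 14.03 and 2.59 FPKM and Etv4, a target of ERK signalling, 47.1 and 17.2 FPKM. Ier3 went the other way, with a log2 ratio of 1.48. Of 19 interferon response genes 2 were called higher, Bst2 from 7.95 to 46.5 FPKM and Isg15 from 0.319 to 9.56 FPKM; counted as reads, Isg15 had a log2 ratio of 1.30, under 3-fold. The 11 Polycomb repressive complex 2 genes and the 9 DNA methylation genes had none past 3-fold, although the methyltransferase gene Dnmt3b measured 47.4 and 106 FPKM in WT and CAST+/129-, its partner Dnmt3l 43.4 and 101 FPKM, and Tet2, a relative of Tet1, 53.3 and 22.1 FPKM.

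Histone marks at the gene starts were counted in unedited cells. The higher genes were called partly for a low level in WT, so no difference is read from the values that follow. Within 1 kb of their starts the 86 higher genes outside the repeat tracts had a median of 1 H3K27ac alignment, and 10.5% had at least 10. The 96 lower genes had a median of 13, and 54.2% had at least 10, beside 56.0% of the 8586 genes outside the tracts with at least 8 FPKM. For H3K4me3, 73.3% of the higher and 86.5% of the lower genes had at least 10 alignments, beside 86.1%. Of the higher genes, 25 had under 1 FPKM in WT, and 64.0% of these had at least 10 H3K4me3 alignments, beside 35.2% of 9334 protein-coding genes under 1 FPKM in both libraries. At least 10 H3K27ac alignments were found at 0 of these 25 genes and at 2.81% of the 9334.

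Of the 197 genes past 3-fold in CAST+/129-, 58 were not past 3-fold the same way in CAST-/129-, 16 of them higher and 42 lower in CAST+/129-. For comparison, 0.819% of all genes (2.91% of those of at least 8 FPKM) were at least 3-fold higher and 0.511% (1.82% of those of at least 8 FPKM) at least 3-fold lower in CAST-/129- than in the same WT library. Most of the 58 were near misses: 38 were still over 2-fold the same way in CAST-/129- and 13 were between 1.5-fold and 2-fold. Of the 58, 25 were past 3-fold the same way in CAST-/129+.

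Once 4 was added to each level, 6 genes were past 3-fold in CAST+/129- and within 1.5-fold of WT in CAST-/129-. Grb10 measured 23.0 FPKM in WT, 3.31 in CAST+/129-, 10.9 in CAST-/129+ and 14.02 in CAST-/129-. Gfpt2, an enzyme of hexosamine synthesis, measured 19.4, 3.12, 10.7 and 13.5 FPKM in the same order. The thrombin receptor F2r measured 54.2, 13.7, 21.9 and 37.2 FPKM, and Vat1, a membrane transport protein, 81.9, 24.5, 35.98 and 59.5 FPKM. In all 4 of these lower genes CAST+/129- also lay below CAST-/129+. Its place below WT and CAST-/129- follows from the rule that chose them. The 2 higher ones were 1190005I06Rik, at 5.81, 28.3, 7.32 and 7.60 FPKM, and the pseudogene Gm12617, at 0.211, 31.2, 8.66 and 0.9002 FPKM, on 2 alignments each in WT and CAST-/129-.

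Among the rest of the 58, the matrix protein Tgfbi went from 39.1 FPKM in WT to 2.87 in CAST+/129- and 10.98 in CAST-/129-, and the inhibin subunit Inhbb from 31.3 to 1.89 and 12.7 FPKM. Marcks, a membrane-bound kinase substrate, went from 88.5 to 17.3 and 31.8 FPKM. Nid1, of the basement membrane, measured 66.6, 17.03 and 33.8 FPKM in WT, CAST+/129- and CAST-/129-, the endoplasmic reticulum proteins Ckap4 and Rcn1 89.4, 21.0 and 46.0 FPKM and 76.6, 21.6 and 33.4 FPKM, and Kdelr3, which retrieves resident proteins of that compartment, 49.7, 10.7 and 14.6 FPKM. In the same order the Wnt receptor Fzd5 measured 44.6, 8.47 and 13.1 FPKM, the guidance receptor Robo1 14.9, 1.68 and 6.72 FPKM, and the ephrin receptor Epha4 37.8, 8.90 and 11.1 FPKM. Txnip, an inhibitor of thioredoxin and glucose uptake, measured 62.7, 11.7 and 19.03 FPKM. Ctgf was past 3-fold in both clones, but its relatives in the Yap and Tead target group, Cyr61 and Ankrd1, were among the 16 higher genes of this set, at 48.2 and 7.29 FPKM in CAST-/129-. Other higher genes were Erbb3, a receptor of the EGF receptor family, at 3.10 FPKM in WT, 19.8 in CAST+/129- and 7.16 in CAST-/129-, and Wnt7b, at 0.173, 10.1 and 4.82 FPKM. Hmox1, which degrades haem, measured 40.1 FPKM in WT, 145.2 in CAST+/129- and 101 in CAST-/129-.

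Membership of the 58 depended on the added value, on depth and on the unit counted. With 1 added to each FPKM in place of 4, 31 of the 58 met the same rule, and with 10 added 10 did. After every library was thinned to the shallowest, 62 genes met the rule and 43 of them were shared. When reads were counted in place of distinct alignments, 56 genes met the same rule and 35 of them were shared. Robo1, Foxq1, Gata4, Isg15 and Wnt7b were among those no longer past 3-fold from WT, with log2 ratios between -1.52 and 1.37. Vat1 lost its call when libraries were scaled by all alignments (log2 ratio -1.56).

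**Figure D5:**
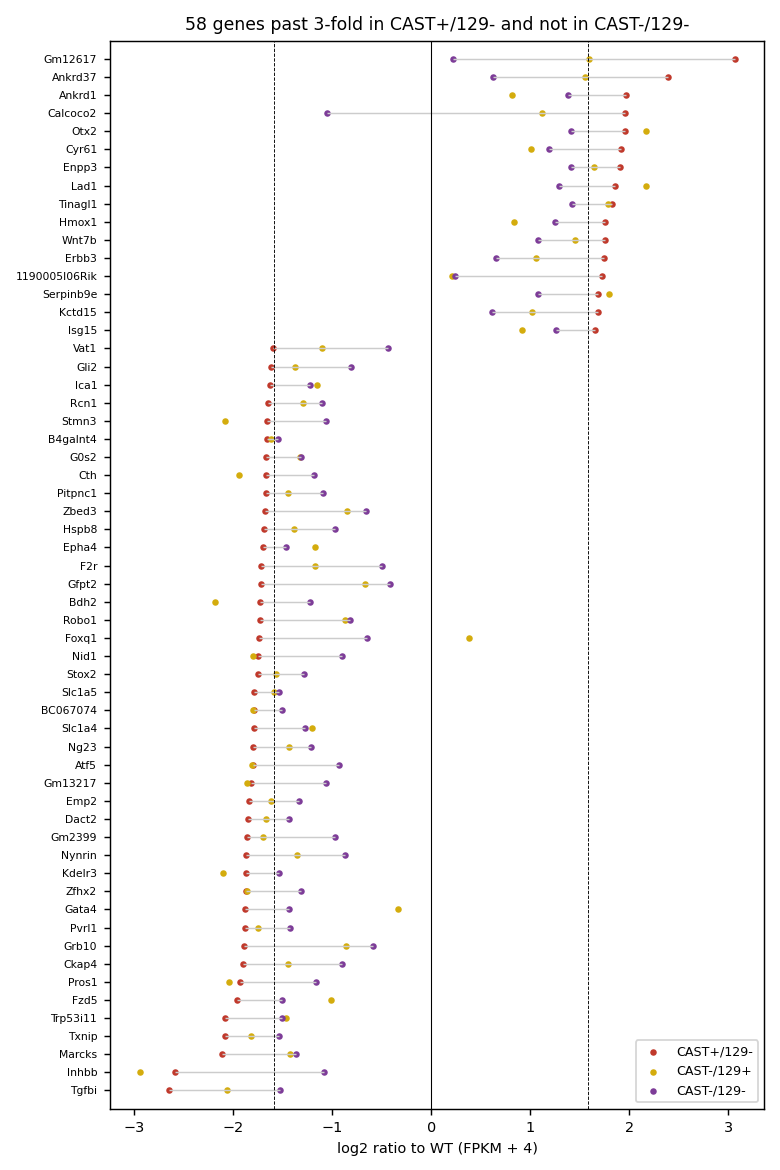
Log2 ratio to WT, on FPKM + 4, of the 58 genes past 3-fold (dashed lines) in CAST+/129- and not the same way in CAST-/129-; each row is a gene, colours are the 3 clones and the grey line joins CAST+/129- and CAST-/129-. Calcoco2 is the row whose CAST-/129- point lies on the other side of 0, and Foxq1 the row whose CAST-/129+ point does.

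Set directly against CAST-/129-, 29 genes were at least 3-fold higher in CAST+/129- (0.0921%) and 81 at least 3-fold lower (0.257%). Sox2 was among the higher, at 82.0 against 7.40 FPKM, as were the germ-line gene Hormad1, at 36.6 against 6.25 FPKM, Bmp4, a bone morphogenetic protein, at 39.0 against 7.79 FPKM, and Zfp42, at 165 against 52.3 FPKM. Among the lower were Igf2, the cell cycle inhibitor Cdkn1c at 12.8 against 168 FPKM, Cer1, a Nodal antagonist, at 0.138 against 37.4 FPKM, and T at 3.16 against 36.3 FPKM. Fibroblast and macrophage genes were among the lower too, such as Dcn at 1.74 against 30.3 FPKM and Lyz2 at 11.7 against 95.5 FPKM.

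By chromosome, CAST+/129- lay close to WT. Over genes of at least 5 FPKM the highest median log2 ratio was 0.06 on chromosome 7 and the lowest -0.31 on chromosome Y, which had 5 such genes. Chromosome 8, with 555 genes, had a median of 0.06 in CAST+/129-, -0.37 in CAST-/129+ and -0.29 in CAST-/129-. The genes on chromosome 8 named above for a difference from CAST-/129- are 1190005I06Rik, Ankrd37, Hmox1 and Zfp42. The part of that shift in their values was not tested.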

How the data were processed

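Poly(A)+ RNA of each genotype had been sequenced strand-specifically (dUTP, 2 × 100 bp) and mapped by the authors to mm9 with Novoalign and USeq; ChIP-seq reads were mapped to mm9, and the submitters' processing notes also name Bowtie. The authors deposited aligned segments with, per line, the whole-number count of reads behind each distinct alignment. Counts, FPKM and ratios were computed here. Distinct alignments were assigned by midpoint to exonic bases unique to 1 GENCODE M1 gene, on the transcript strand, for genes with at least 200 such bases, and scaled to alignments on genes. Following the study's rule, 4 was added to each FPKM and 3-fold was the threshold. Counts have exact Poisson and ratios exact binomial 95% intervals. Intervals were computed with scipy 1.17.1, tables with pandas 2.3.3 and numpy 2.4.6 under Python 3.11.15, and plots with matplotlib 3.10.9. H3K27ac in J1 cells was not analysed here.

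The genes, lists and rules were chosen with earlier results of these data known. The genes to name were drawn from Sox2, Pou5f1, Nanog, Klf4, Esrrb, Tet1 and Kit, the 15 largest changes each way, up to 8 each way within 1.5-fold in CAST-/129-, the 4 largest of each list, the genes beside Sox2 and the extreme chromosomes; not all of them are reported here. The 20 largest changes each way outside the repeat tracts, the 58 genes not past 3-fold in CAST-/129-, other list members and the genes of the direct comparison with CAST-/129- were chosen after their values were seen, as were the promoter motifs. Alternatives changed the unit counted, depth, library size, added value, threshold, filter, gene class, strand and assignment.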

Additional observations from a re-analysis of the deposited data

Results flagged for a closer look

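Calcoco2, an autophagy receptor, lay on opposite sides of WT in 2 clones. Its log2 ratio was 1.96 in CAST+/129- and -1.05 in CAST-/129-, at 96.9 and 8.57 FPKM against 22.0 FPKM in WT. In CAST-/129+ it was also above WT, at 52.4 FPKM and a log2 ratio of 1.12. Foxq1, a forkhead factor, had a log2 ratio of -1.74 in CAST+/129- and 0.38 in CAST-/129+, at 1.52 and 19.98 FPKM against 14.4 FPKM in WT. With 1 library per genotype neither difference was tested. The repeat tract gene models also had a signal outside the main measurement: antisense alignments summed to 168.5 CPM in WT and 3337 CPM in CAST+/129-.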

How the results depend on the processing

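No paired analysis was possible because each genotype had 1 library and the labels carry no replicate numbers, and for the same reason no library could be left out. The added value and the threshold set the counts of genes. With 1 added to each FPKM, 286 genes were higher, 348 lower and 217 not past 3-fold in CAST-/129-, and with 10 added the counts were 50, 24 and 22. At a 2-fold threshold they were 285, 401 and 225, and at 5-fold 49, 14 and 17. Other alternatives kept each count within 1.5 times, from 86 to 111 higher (86 without the repeat tract models, an alternative added after the data were seen), 79 to 97 lower and 56 to 64 not past 3-fold in CAST-/129-. Counting reads in place of distinct alignments shared 81 of the 101 higher and 63 of the 96 lower genes and gave Sox2 at 38.0% of WT, and thinning every library to the shallowest gave 42.7%. Of the 139 called genes among those named and listed, none changed direction under the 8 alternatives run on them, but 74 lost their call with 10 added, 28 when reads were counted and 13 after thinning. The cause of these shifts was not tested. Genes under 8 FPKM in both libraries could not pass the threshold, so changes at low levels were not detectable by this rule.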
